A study of Mus musculus with 6 samples.

Results

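In mouse microglia kept in vitro, 24 genes held more RNA where Cop1 had been knocked out and less RNA where wild-type cells had been given lipopolysaccharide (LPS). They were chosen by those 2 opposite differences themselves, from 36528 gene identifiers in the count files. The rule used library-size CPM (each count divided by the library total, times 1e+06), averaged in each group, and L, the log2 ratio of a group's mean CPM + 1 to the untreated wild-type mean CPM + 1. A gene was kept with a mean of at least 5 CPM in a group, an L of at least 0.80 in the knockout and an L of at most −0.80 with LPS. Of 11156 genes that carried an allowed symbol and reached 5 CPM, 244 (2.19%) passed the knockout threshold, 4849 (43.5%) passed the LPS threshold and 24 (0.215%) passed both. A further gene met all thresholds and was left out by its name under the rule, as were identifiers without a symbol. Because both contrasts chose the genes, their differences from untreated wild type are given below as descriptions, without a test.

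Polyadenylated RNA was sequenced from microglia, the resident macrophages of the brain, in 6 libraries of 3 groups with 2 libraries each. The groups were untreated wild-type microglia (called the controls below), untreated microglia that the labels call Cop1 KO and Loxp, and wild-type microglia with LPS. LPS is a component of the outer membrane of bacteria that is sensed by Toll-like receptor 4. The labels name neither the Cre driver, the strain and age of the mice, the dose and duration of LPS, nor whether the 2 libraries of a group came from separate cultures, so the spread between them may be technical. The wild type differs from the knockout by its label alone, and whether it carries loxP sites or Cre is not stated in the labels.

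COP1 is a ubiquitin ligase that marks transcription factors, among them members of the C/EBP and ETS families, for degradation. C/EBP factors take part in the inflammatory gene program of macrophages, and LPS induces that program through NF-kB and interferon signalling. LPS also lowers many genes of the resting macrophage, including surface receptors and regulators of shape and growth. The 24 genes are thus a set in which the 2 conditions went opposite ways, and they include paired immune receptors, regulators of the actin cytoskeleton, small stress and growth regulators, and the host transcript of miR-223.

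Library totals lay between 20568144 and 22553708 counts. Cop1 itself (chromosome 1, 159232156 to 159354872 on GRCm38) was at 15.2 and 13.7 CPM in the control libraries, 8.40 and 9.61 in the knockout libraries and 18.8 and 21.9 with LPS, so the knockout libraries lay below both other groups but kept part of the transcript (edgeR log2 fold change −0.49 (SE 0.11, adjusted p = 0.00016)). Reads from exons outside the deleted part are counted too, so this checks the labels only in part. The composition of the libraries differed, and this bears on every value below: on the library-size scale the median L of all 11156 genes was −0.15 in the knockout and −0.68 with LPS. With TMM factors, which scale libraries to a common set of genes, the medians were 0.03 and −0.13.

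The non-coding member F630028O10Rik (chromosome X, 96239926 to 96243642, plus strand) spans the hairpin of miR-223, a microRNA of myeloid cells. The 2 mature arms that RefSeq places inside it on build GRCm38.p6 are shown here because they are the best known product of any of the 24 transcripts. Capitals mark the seed, bases 2 to 8, with which a microRNA pairs to its targets.
mmu-miR-223-5p: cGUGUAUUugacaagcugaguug
mmu-miR-223-3p: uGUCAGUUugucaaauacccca
The 5p arm lies at chrX:96242842-96242864 and the 3p arm at chrX:96242884-96242905. The seeds of the arms differ. Polyadenylated libraries do not measure mature microRNAs, so the values that follow are for the long host transcript.

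F630028O10Rik stood at 34.6 and 31.4 CPM in the controls, 58.3 and 64.4 in the knockout and 4.37 and 4.13 with LPS. Both knockout libraries lay above and both LPS libraries below the untreated pair, and the mean was 1.86-fold higher in the knockout and 7.77-fold lower with LPS. The separate gene row of the hairpin, Mir223, drew 64 and 54 counts in the controls, 91 and 93 in the knockout and 9 and 7 with LPS. It followed the same order as its host, of which it overlaps 3.34% of the exonic bases on the same strand, and it stayed under the minimum of 5 CPM.

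Across the set, the 24 genes together made up 632 and 641 CPM in the controls, 1223 CPM in each knockout library, and 147 and 155 CPM with LPS. The rule cut L in both contrasts, and 2.19% of the 11156 genes passed the cut in the knockout against 43.5% with LPS. Among the members, the span of L differed strongly between the contrasts. In the knockout it ran from 0.80 to 1.40 with a median of 0.95, a narrow band just above the threshold. With LPS it ran from −4.16 to −0.88 with a median of −1.68, and 9 genes lay at −2 or below. Ranked by L among the 11156 genes, the members held places 65 to 242 from the top in the knockout. The LPS ranks from the bottom ran from 36 for Ypel3 to 4376 for Gm36856.

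**Figure D1:**
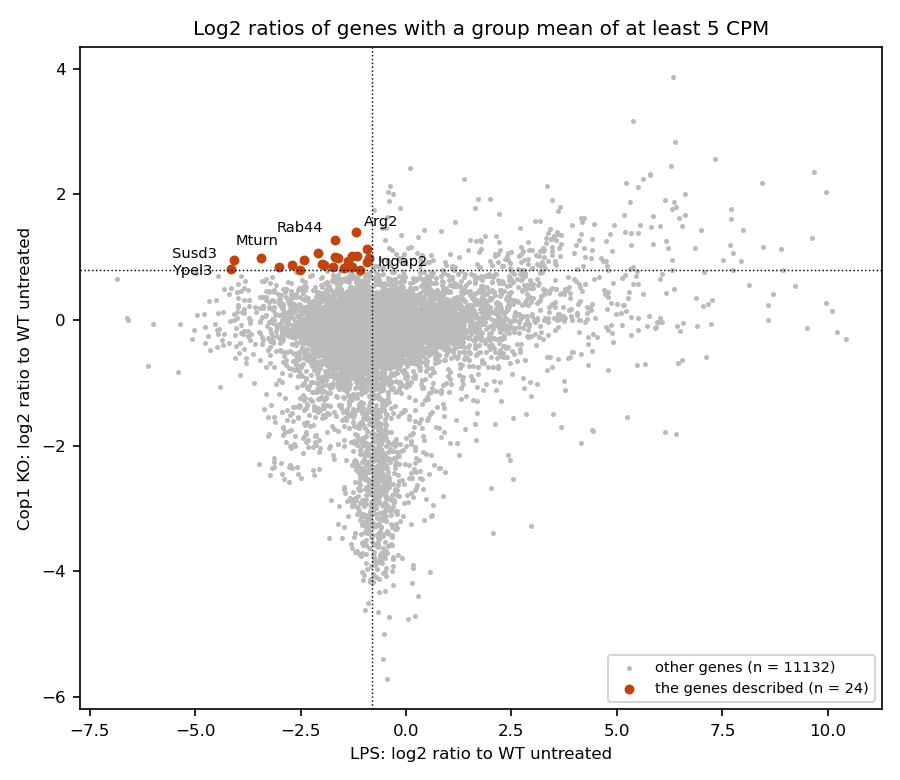
Each point is a gene with a group mean of at least 5 CPM (24 members in orange, the others in grey), placed by L with LPS on the x axis and L in the Cop1 knockout on the y axis, both log2 ratios against the same untreated wild-type libraries. Dotted lines mark the thresholds of 0.8 and −0.8; the members fill the upper left corner, from Arg2 at the top (L 1.40) to Ypel3 at the far left (L −4.16).

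In all 24 genes both knockout libraries exceeded both untreated libraries, and both LPS libraries fell short of them. The choice of the members brings that about, and over all 11156 genes the same orders held for 23.7% and 76.9%. Pairs of libraries in a group lay close together. The larger of a pair exceeded the smaller by a median of 1.10-fold over the 24 genes in the controls, 1.08-fold in the knockout and 1.16-fold with LPS. The widest gaps were in Sirpb1c, with 73 and 131 counts in the untreated libraries, in Gfra4, with 104 and 137 in the knockout, and in Rab44, with 3 and 1 counts with LPS.

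**Figure D2:**
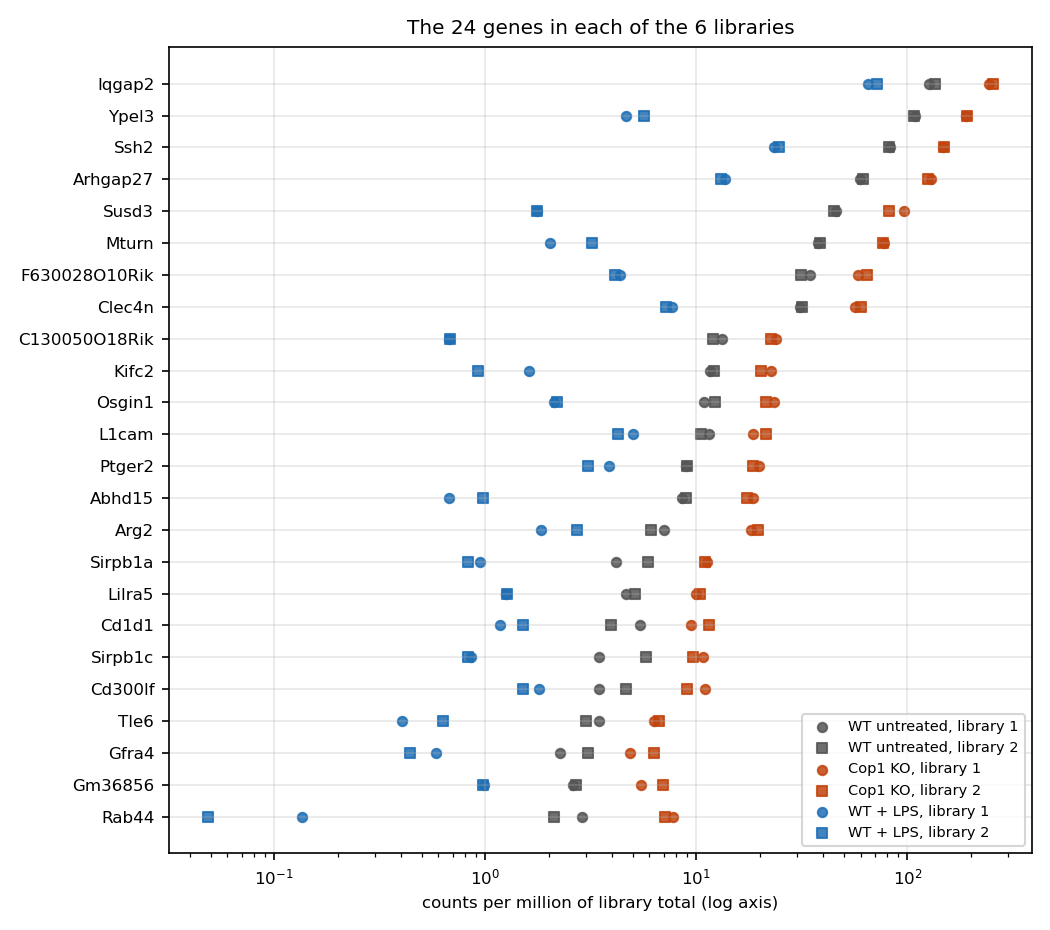
CPM of the 24 genes (y axis, ordered by the untreated wild-type mean) in each of the 6 libraries (x axis, log scale); circles and squares are the 2 libraries of a group, with untreated wild type in grey, Cop1 KO in orange and LPS in blue. In every row the knockout pair lies to the right and the LPS pair to the left of the untreated pair, with the widest LPS gaps in Rab44, Susd3 and Ypel3.

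The distance to the untreated group depended on the scaling, although the order did not. With TMM factors, the members' median L was 1.11 in the knockout and −1.29 with LPS, and all 24 genes passed the knockout threshold (background 3.58% of 11047 genes) but 18 passed the LPS threshold (background 20.1%). The 6 that did not were Arg2, Cd300lf, Gm36856, Iqgap2, L1cam and Ptger2, which lay between −0.37 (Iqgap2) and −0.76 (Arg2) with LPS. With median-of-ratios factors 17 members met both thresholds, and on the authors' normalised RPKM scale 11 did. In each of the 4 scalings all 24 genes kept an L above 0 in the knockout and an L below 0 with LPS, and with LPS they also stayed below the median of all genes. Arhgap27, Mturn, Susd3, Osgin1, Clec4n, F630028O10Rik and Ypel3 were the 7 genes that met the whole rule in all 4.

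**Figure D3:**
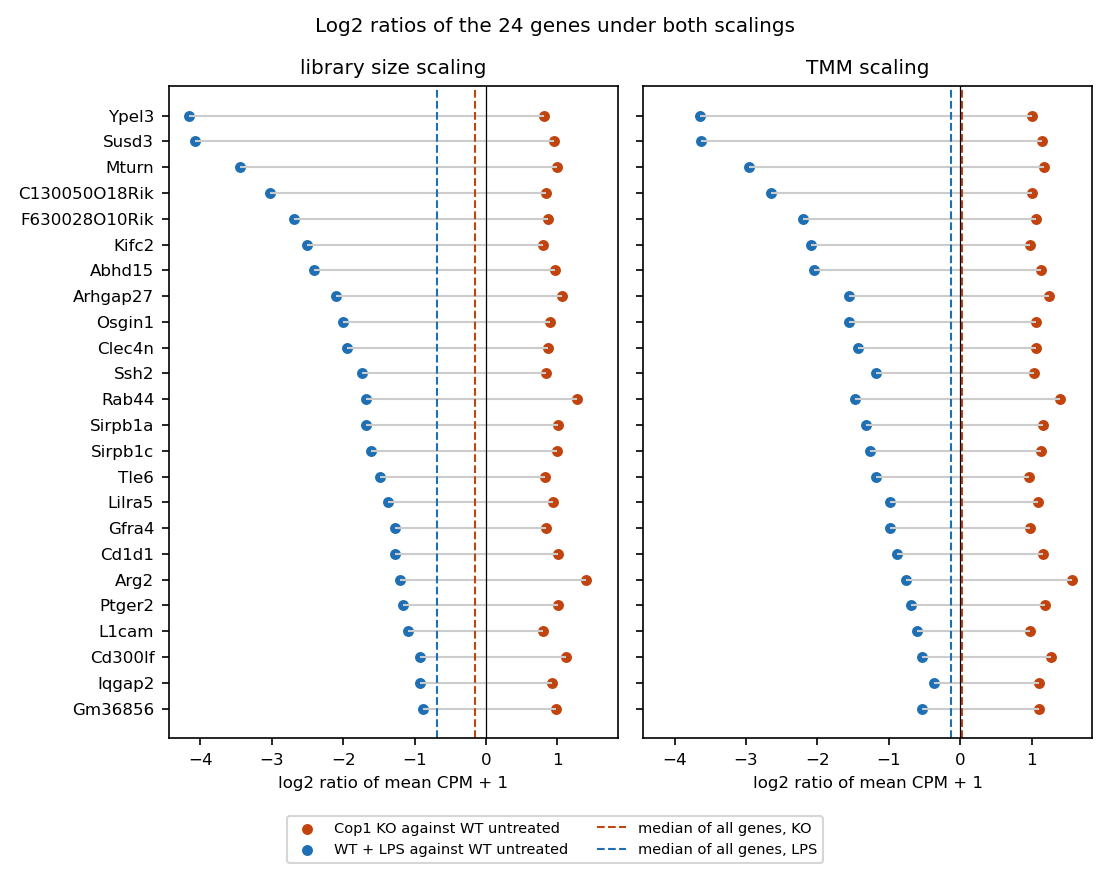
L of each of the 24 genes (y axis, ordered by L with LPS) on library size (left) and with TMM factors (right); orange points compare Cop1 KO and blue points LPS with untreated wild type, and dashed lines are the medians of all genes. TMM moves every blue point to the right, so that the all-gene LPS median goes from −0.68 to −0.13 and Iqgap2 from −0.93 to −0.37.

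Compared per transcript length, on the authors' normalised RPKM in the controls, Ypel3 stood first with 57.4 ± 0.287 (SD, n = 2). Susd3 followed with 14.8 ± 0.242, Clec4n with 14.4 ± 0.268, Iqgap2 with 12.4 ± 0.577 and F630028O10Rik with 6.76 ± 0.450. From there the levels declined to 0.234 ± 0.0497 for Rab44, the lowest. The first 8 in the order, down to Ssh2 at 3.52 ± 0.0210, were each separated from the next gene in both libraries. In the lower part of the order neighbours mostly overlapped: Arg2 and Osgin1 did so, as did Kifc2, Sirpb1c, Sirpb1a and Abhd15, and likewise Cd1d1, C130050O18Rik, Lilra5, Ptger2, Cd300lf and L1cam.

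The largest role within the set was that of cell-surface receptors and antigen presentation, with 9 genes. Their L ran from 0.80 to 1.12 in the knockout and from −1.95 to −0.93 with LPS, a median of 0.99 and −1.28. Clec4n encodes Dectin-2, a C-type lectin that binds fungal mannans and signals through the Fc receptor gamma chain, Syk and CARD9. Its level was 31.1 and 31.8 CPM in the controls, 56.7 and 60.3 in the knockout and 7.70 and 7.15 with LPS. The groups did not overlap, and the mean was 1.86-fold higher in the knockout and 4.24-fold lower with LPS.

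The genes beside Clec4n, and the partners of its pathway, were chosen for comparison after the members were known. Clec4d, 15.1 kb away on chromosome 6, also encodes a C-type lectin and rose in the knockout by 1.36 (SE 0.03, adjusted p = 6.8e-40) on the edgeR log2 scale. With LPS it was also higher, at 0.69 (SE 0.03, adjusted p = 3.7e-27), the opposite sign to Clec4n. Clec4e, which encodes the lectin Mincle 34.8 kb from Clec4n, rose in both contrasts, from a mean of 4.29 CPM to 10.7 in the knockout and to 613 with LPS (7.71 (SE 0.07, adjusted p = 9.5e-61)). Clec4a1 likewise rose in both, by 1.12 and 2.31. Clec7a, the gene of the related fungal receptor Dectin-1, fell by 0.15 in the knockout and by 1.32 with LPS. Of the signalling partners, Card9 was higher in the knockout (0.82 (SE 0.05, adjusted p = 7.7e-20)) and lower with LPS (−0.99 (SE 0.06, adjusted p = 8.3e-20)), and Fcer1g rose in both, from a mean of 511 CPM to 711 and 978.

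Sirpb1a and Sirpb1c encode signal-regulatory proteins of the beta type, which lack an inhibitory tail and signal through an adaptor. Sirpb1a was at 4.16 and 5.90 CPM in the controls, 11.2 and 10.99 in the knockout and 0.945 and 0.827 with LPS. Sirpb1c was at 3.45 and 5.81, 10.7 and 9.61 and 0.855 and 0.827 CPM in the same order. The values of the pair ran close together in all groups, with 2.21-fold and 2.20-fold higher means in the knockout, and both lie on chromosome 3. As related genes they may share stretches of sequence, which was not measured, and the authors' counting of unique alignments could then split or drop reads. The 2 levels are therefore uncertain and should not be taken as independent. Sirpb1b, a further gene of this type, changed in the same directions, by 0.70 (SE 0.17, adjusted p = 0.00048) in the knockout and −1.13 (SE 0.24, adjusted p = 3.3e-05) with LPS. Sirpa, which encodes the inhibitory receptor for CD47, stood at a mean of 2648 CPM, rose by 0.37 in the knockout and changed by −1.20 with LPS.

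Lilra5 encodes an activating receptor of the leukocyte immunoglobulin-like family. It was counted at 4.63 and 5.10 CPM in the controls, 9.99 and 10.4 in the knockout and 1.26 and 1.26 with LPS. The knockout mean was 2.10-fold higher, and 25.9% of the untreated level was left with LPS. Its relatives Pirb and Lilrb4a, which encode inhibitory receptors, rose in the knockout by 1.16 and 0.52 and also rose with LPS, by 1.21 and 1.73.

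Cd300lf encodes a receptor of the CD300 family that binds lipids such as ceramide and phosphatidylserine. Its libraries were at 3.45 and 4.66 CPM in the controls, 10.98 and 9.06 in the knockout and 1.80 and 1.51 with LPS. The knockout libraries were well apart from the untreated pair, 2.47-fold higher on average, while the LPS difference was 2.45-fold and did not pass the LPS threshold with TMM factors. Other CD300 genes went various ways. Cd300lb went from a mean of 306 CPM to 8.83 with LPS (−4.55 (SE 0.06, adjusted p = 7.1e-53)) and changed by 0.27 in the knockout. Cd300a went from 192 to 10.8 CPM with LPS (−3.59 (SE 0.06, adjusted p = 6.5e-47)), and in the knockout its log2 fold change was 0.06 (adjusted p = 0.15). Cd300c2 and Cd300ld rose in the knockout, by 0.43 and 0.62, and changed by −1.31 and −1.41 with LPS, and the low Cd300ld4 was at 0.58 (adjusted p = 0.035) and −1.70. Cd300ld3 changed by −1.22 with LPS, with 0.07 in the knockout (adjusted p = 0.60). Cd300e, near the detection limit in the controls, rose with LPS to a mean of 4.08 CPM (5.17 (SE 0.38, adjusted p = 6.1e-18)), and its knockout value was 0.96 (adjusted p = 0.24).

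Cd1d1 encodes the CD1d molecule, which presents lipid antigens to natural killer T cells. It stood at 5.39 and 3.95 CPM in the controls, 9.47 and 11.4 in the knockout and 1.17 and 1.51 with LPS, 2.24-fold higher in the knockout and 3.49-fold lower with LPS. The other gene of the family, Cd1d2, was too low to be tested. Cd1d1 was the single antigen-presenting gene of the set, and for the MHC class II genes, of which 7 were tested, the calls ran the other way: 5 fell and 1 rose in the knockout and 6 rose with LPS (with library size only, 5 fell in the knockout, and 4 rose and 1 fell with LPS).

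Ptger2 encodes EP2, a receptor for prostaglandin E2 that raises cyclic AMP. It was at 8.93 and 9.05 CPM in the controls, 19.8 and 18.5 in the knockout and 3.87 and 3.06 with LPS, and the pairs were 2.13-fold and 2.59-fold apart. The enzymes that make its ligand had a different pattern. Ptgs2, the gene of the inducible cyclooxygenase, rose in both contrasts, by 1.06 in the knockout and from a mean of 9.16 to 4981 CPM with LPS (9.65 (SE 0.05, adjusted p = 5.4e-71)). Ptges, the gene of the inducible prostaglandin E synthase, also rose in both, with 2.12 (SE 0.12, adjusted p = 2e-21) in the knockout and 7.45 (SE 0.07, adjusted p = 1e-59) for LPS. Of the other EP receptor genes, Ptger4 changed by −0.30 with LPS and its log2 fold change in the knockout was −0.11 (adjusted p = 0.17). Ptger1 rose by 0.45 in the knockout and changed by −0.37 with LPS.

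The remaining receptors are best known from nerve cells. L1cam, which encodes an adhesion molecule of axons, was at 11.02 ± 0.724 CPM in the controls, 19.98 ± 2.12 in the knockout and 4.64 ± 0.507 with LPS (mean ± SD, n = 2). Gfra4, which encodes a co-receptor for persephin, a ligand of the GDNF family, was at 2.66 ± 0.559, 5.59 ± 1.005 and 0.511 ± 0.104 CPM in the same order, a low level that rested on 48 and 69 counts in the controls. Both were higher in the knockout, unlike their relatives. Chl1, Nrcam and Nfasc, also of the L1 family, fell in the knockout by 4.36, 1.82 and 3.08 on the log2 scale. Gfra1 and Ret, which encode another co-receptor and the signalling receptor, fell by 3.45 and 3.22. In the same libraries the summed level of 8 neuron markers was 78.2 to 79.4 CPM in the controls, 7.79 to 10.2 in the knockout and 48.3 to 48.8 with LPS. The direction of this sum was opposite to that of L1cam and Gfra4 in the knockout and the same with LPS. The part of nerve cells in the values of L1cam and Gfra4 was not tested.

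Genes of the cytoskeleton and of membrane traffic made up a group of 5, with L from 0.80 to 1.27 in the knockout and from −2.50 to −0.93 with LPS. Iqgap2, a scaffold of actin and of small GTPases, had the highest CPM of the 24 genes: 127 and 135 in the controls, 245 and 254 in the knockout and 65.3 and 72.0 with LPS. It kept 52.3% of its untreated level with LPS, the largest share in the set, and on the TMM scale its LPS value was −0.37, the smallest in size. Iqgap3, a scaffold tied to cell division, fell in both contrasts, by 1.61 and 1.32. The third family member, Iqgap1, was 1135 CPM in the controls and rose by 0.86 with LPS.

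Ssh2 encodes slingshot 2, a phosphatase that switches on the actin-severing protein cofilin. Its levels were 82.7 and 81.9 CPM in the controls, 148 and 149 in the knockout and 23.4 and 24.7 with LPS. The libraries of each pair were nearly equal, and the means were 1.80-fold and 3.42-fold apart. Ssh1 rose by 0.37 (SE 0.06, adjusted p = 2.9e-07) in the knockout and changed by −0.28 (SE 0.07, adjusted p = 0.00018) with LPS, and Ssh3 rose in both, by 0.71 and 0.78.

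Arhgap27 encodes a GTPase-activating protein that takes part in endocytosis. It was at 59.9 and 61.3 CPM in the controls, 129.7 and 126 in the knockout and 13.7 and 13.1 with LPS, and it met the rule in every setting tried (15 of 15, listed in the closing section). Over 23.1% of its exonic bases the annotation has antisense genes, Arhgap27os1 and Arhgap27os2, and the unstranded library does not tell the strands apart. Arhgap9, which encodes a related protein, rose by 0.32 (SE 0.04, adjusted p = 7.2e-09) in the knockout and changed by −1.58 (SE 0.05, adjusted p = 5.8e-32) with LPS. Arhgap15 fell in both, by 0.61 and 0.72.

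Rab44 encodes a large Rab GTPase of immune cells that acts in granule release and lysosome traffic. It had the lowest untreated level per length and one of the larger knockout differences: 2.88 and 2.13 CPM in the controls and 7.79 and 7.13 in the knockout, 2.98-fold on average. With LPS 3 and 1 counts remained, 0.135 and 0.0486 CPM. The pooled LPS level was 0.0935 CPM with an exact Poisson 95% interval of 0.0255 to 0.239, and the ratio of untreated to LPS, 27.3, rests on those 4 counts. Cracr2a, of the same family of large Rab GTPases, was lower in both, and in the knockout it fell by 0.61. Kifc2, which encodes a minus-end-directed kinesin motor, was at 11.9 ± 0.369 CPM in the controls, 21.5 ± 1.75 in the knockout and 1.27 ± 0.493 with LPS. It lay nearest the knockout threshold, with L at 0.80, while Kifc1, the kinesin of the mitotic spindle, fell by 1.47 in the knockout and by 2.75 with LPS.

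Metabolic and stress genes were represented by Arg2, Abhd15 and Osgin1. Arg2 encodes arginase 2, the mitochondrial enzyme that splits arginine into ornithine and urea. It had the highest L of the set in the knockout, 1.40: 6.99 and 6.07 CPM in the controls, 18.2 and 19.7 in the knockout and 1.85 and 2.72 with LPS. The knockout mean was 2.89-fold higher. Over 28.1% of the annotated exonic bases of Arg2 overlap genes of the opposite strand, chiefly Vti1b. Vti1b was at 63.8 and 65.1 CPM in the controls, 58.7 and 54.8 in the knockout and 43.6 and 44.9 with LPS. Its L was −0.18 and −0.53 on library size but 0.01 and 0.02 with TMM factors, so no direction is given for it, and its part in the values of Arg2 was not tested.

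The other genes of arginine use differed from Arg2. Nos2, the gene of the inducible nitric oxide synthase, which competes for arginine, rose with LPS from a mean of 0.810 to 2479 CPM (12.15 (SE 0.07, adjusted p = 6.7e-70)). In the knockout its log2 fold change was −0.59 (adjusted p = 0.20). Slc7a2, an arginine transporter gene, rose with LPS by 5.36 and fell in the knockout by 0.63. Arg1, the gene of the cytosolic arginase, was near the detection limit at means of 0.777, 0.373 and 0.165 CPM.

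Osgin1, an oxidative-stress-induced growth inhibitor gene, was at 10.9 and 12.3 CPM in the controls, 23.4 and 21.5 in the knockout and 2.12 and 2.19 with LPS. The factor NRF2 is known to induce it, and other NRF2 targets were set beside it. Gclc, Srxn1 and Txnrd1 fell in the knockout, by 0.27, 0.26 and 0.40, where Osgin1 was 1.93-fold higher. Hmox1, Gclm and Nqo1 had log2 fold changes there of 0.08, 0.05 and 0.09 (adjusted p = 0.013, 0.31 and 0.61), and all 3 were negative on library size, at −0.12, −0.14 and −0.10. With LPS, Hmox1, Gclm, Gclc, Srxn1 and Nqo1 changed by −1.29, −1.23, −1.49, −1.25 and −0.67, the direction of Osgin1, while Txnrd1 rose by 0.39 (−0.17 on library size). Its relative Osgin2 fell by 0.32 in the knockout and rose by 1.60 with LPS.

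Abhd15, an alpha/beta hydrolase gene known from fat cells, was at 8.55 and 8.91 CPM in the controls, 18.5 and 17.5 in the knockout and 0.675 and 0.972 with LPS. Its level with LPS was 9.43% of the untreated level. Of its exonic bases 43.0% overlap genes of the opposite strand, among them Trp53i13 and Taok1. Trp53i13 was at 11.2 and 8.16 CPM in the controls, 12.5 and 15.2 in the knockout and 4.46 and 3.50 with LPS. Taok1 was at 120 and 117 CPM in the controls, 94.3 and 96.7 in the knockout and 107 and 118 with LPS. Its L was −0.31 in the knockout and −0.07 with LPS on library size, and −0.12 and 0.49 with TMM factors. Reads from the shared stretches cannot be assigned to a strand, and the part of Trp53i13 and Taok1 in the values of Abhd15 was not tested.

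Growth and gene regulation were represented by Ypel3, Mturn and Tle6, and these genes had the widest LPS differences as a group, with L from −4.16 to −1.48. Ypel3 encodes a small zinc-binding protein that restrains proliferation in other cells. It was at 109 and 108 CPM in the controls, 190.0 and 192 in the knockout and 4.64 and 5.64 with LPS. The LPS libraries kept 4.74% of the untreated level, while the knockout libraries were 1.76-fold above it. Ypel2 had a like order, with 0.42 (SE 0.09, adjusted p = 7.2e-05) in the knockout and −3.74 (SE 0.18, adjusted p = 7.5e-26) with LPS. Ypel1 rose by 0.32 in the knockout, and its LPS log2 fold change was −0.17 (adjusted p = 0.18).

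Mturn, the maturin gene, is known as a regulator of differentiation in the nervous system and in blood platelet precursors. It stood at 37.9 and 38.6 CPM in the controls, 77.6 and 76.5 in the knockout and 2.03 and 3.21 with LPS, a 2.01-fold and 14.6-fold separation of means. Tle6 encodes a short member of the Groucho family of corepressors and was low, at 3.23 ± 0.308 CPM in the controls, 6.50 ± 0.237 in the knockout and 0.519 ± 0.160 with LPS. Tle2, whose span overlaps that of Tle6 on chromosome 10, rose by 0.91 (SE 0.09, adjusted p = 1e-12) in the knockout and changed by −1.77 (SE 0.14, adjusted p = 1.1e-16) with LPS. Tle1 did likewise, by 0.71 and −2.21, whereas Tle3 fell by 0.25 in the knockout and rose by 1.08 with LPS.

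The last role held Susd3, C130050O18Rik and the non-coding F630028O10Rik and Gm36856. Susd3 encodes a membrane protein with a sushi domain. It was at 46.0 and 44.9 CPM in the controls, 96.1 and 81.9 in the knockout and 1.76 and 1.75 with LPS, 25.9-fold lower with LPS, and its knockout libraries were less close to each other than most pairs. Susd6 rose in both contrasts, by 0.35 and 1.21, and Susd4 fell by 3.78 in the knockout and fell by 0.65 with LPS.

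C130050O18Rik, a little described protein-coding gene, was at 12.6 ± 0.828 CPM in the controls, 23.3 ± 0.952 in the knockout and 0.678 ± 0.00389 with LPS. Its LPS libraries held 15 and 14 counts. It overlaps 3110082I17Rik, a gene of the opposite strand, over 11.4% of its exonic bases. The long non-coding Gm36856, which had no match in the GENCODE annotation, was at 2.65 ± 0.0744, 6.21 ± 1.03 and 0.981 ± 0.0126 CPM and lay closest to the LPS threshold, with L at −0.88.

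**Figure D4:**
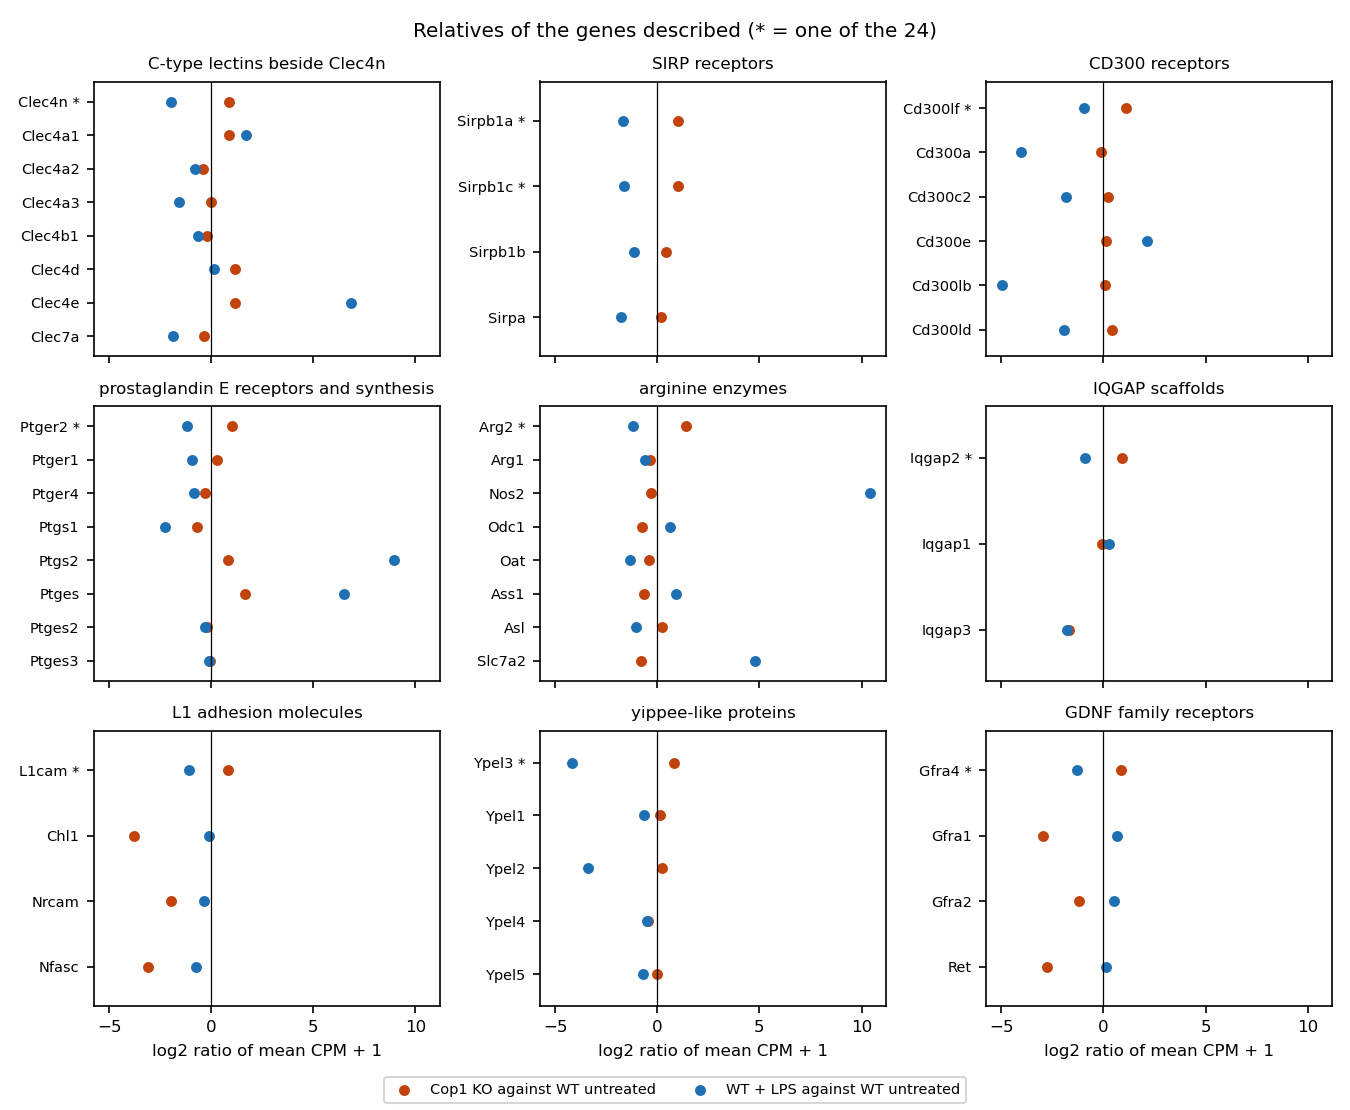
L (x axis, log2 ratio of mean CPM + 1 to untreated wild type) for 9 gene families that hold a member, marked by an asterisk, with Cop1 KO in orange and LPS in blue. The orange point of each member lies right of 0 and its blue point left of 0, while relatives such as Clec4e, Ptgs2, Nos2 and Ret lie elsewhere (Clec4e at 1.15 and 6.86).

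Lists of microglia and macrophage genes that are not members place the set in the wider expression of these cells. In the edgeR fit, 28.1% of 15585 genes were called higher and 30.3% lower in the knockout, and 30.2% higher and 43.4% lower with LPS (adjusted p below 0.05). The balance of these calls moved with the scaling: 4374 higher and 4727 lower in the knockout became 5490 and 3913 with median-of-ratios factors and 2321 and 7195 with library size only. With LPS, 4714 higher and 6767 lower became 5579 and 5667, and 2679 and 10766.

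Of 16 inhibitory and paired immune receptors, a list that also holds the members Lilra5 and Cd300lf, 11 rose and 2 fell in the knockout, with a median of 0.34, against −0.01 for all genes tested. With LPS 9 rose and 7 fell, with a median of 1.08, against −0.18. With library size only, 7 rose and 3 fell in the knockout. Lilrb4a and Cd300a, described above, and Sirpa were among the genes of the list with the smallest p. Cd33, which encodes a sialic acid receptor, rose in both, with 0.32 (SE 0.07, adjusted p = 0.00011) in the knockout and 2.80 (SE 0.06, adjusted p = 1.7e-42) for LPS.

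Of 13 homeostatic microglia genes, 9 rose and 1 fell in the knockout (median 0.32), and 5 rose and 8 fell with LPS (median −0.63). With library size only, 6 rose and 2 fell in the knockout. Cx3cr1, the fractalkine receptor gene, went from 472 CPM to 765 in the knockout (0.89 (SE 0.03, adjusted p = 3.3e-31)) and to 20.3 with LPS (−3.97 (SE 0.04, adjusted p = 7.4e-55)). On library size its L was 0.70 in the knockout, which is why it is no member. Olfml3 had calls of 0.59 and −2.47.

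Of 26 chemoattractant, purine and lipid receptors coupled to G proteins, the class to which Ptger2 also belongs, 15 rose and 5 fell in the knockout and 10 rose and 13 fell with LPS. With library size only the counts were 11 and 8, and 6 and 18. Cxcr4, the receptor gene for the chemokine CXCL12, went from 211 CPM to 332 in the knockout and to 0.834 with LPS. Fpr1 and Fpr2, receptor genes for formylated peptides, rose in both contrasts, by 4.12 and 3.86 in the knockout and by 6.77 and 8.23 with LPS.

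Of 17 macrophage transcription factors, 12 rose and 3 fell in the knockout and 8 rose and 9 fell with LPS. With library size only the counts were 10 and 4, and 6 and 9. Irf8, the gene of an interferon regulatory factor of microglia, rose in both, by 0.79 and 2.61. Cebpa, the C/EBP alpha gene, was at 469 CPM in the controls and 3.87 with LPS. Its knockout call was 0.19, and on library size its L there was 0.0001. Of 14 lipid efflux genes 9 rose and 2 fell in the knockout and 5 rose and 9 fell with LPS, with Abca1, the cholesterol exporter gene, at 0.47 and −1.16. Scaling by library size gave 7 higher and 5 lower calls in the knockout, and with median-of-ratios factors 6 rose and 6 fell with LPS. All 18 interferon-stimulated genes tested rose in both contrasts, and the LPS threshold of the rule keeps such genes out of the 24.

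Of 14 disease-associated microglia genes 6 rose and 6 fell in the knockout, which became 5 and 9 with library size only and 8 and 4 with median-of-ratios factors, and 2 rose and 12 fell with LPS. Of 16 phagocytic receptors and bridging ligands 8 rose and 4 fell in the knockout (8 and 7 with library size only), and 8 rose and 8 fell with LPS. Of 15 Toll-like receptors and accessory proteins 11 rose and 0 fell in the knockout (9 and 2 with library size only), and 12 rose and 3 fell with LPS. Of 14 complement genes 11 rose and 2 fell in the knockout, and 8 rose and 4 fell with LPS (6 and 6 with library size only). Of 13 growth factors 5 rose and 4 fell in the knockout (5 and 7 with library size only), and 3 rose and 9 fell with LPS. Of 8 border-associated macrophage genes 3 rose and 4 fell in each contrast (0 and 8 with LPS and library size only). Of 14 genes of ERK feedback and PEA3 factors 1 rose and 13 fell in the knockout (0 and 13 with library size only), and 6 rose and 7 fell with LPS (3 and 9).

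Markers of other cell types moved with the groups. The summed level of 8 astrocyte markers was 839.9 to 846 CPM in the controls, 42.3 to 46.7 in the knockout and 652 to 658 with LPS. That of 8 genes of dividing cells was 400.3 to 413, 114 to 118 and 85.4 to 85.6 CPM. Over 10 markers of microglia and macrophages, all above 0 counts in every group, it was 6920 to 7008 CPM in the controls, 8634 to 8737 in the knockout and 4183 to 4232 with LPS, with 7 of 10 higher in the knockout and 7 of 10 lower with LPS.

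On this library-size scale the microglia and macrophage sums stood in the same order as the 24 genes. Over all 11156 genes, both knockout libraries lay above the controls in 23.7%, and both LPS libraries below them in 76.9%. The median L of these 10 markers was 0.27 in the knockout and −1.03 with LPS, against −0.15 and −0.68 for all genes. The astrocyte, neuron and dividing-cell markers were lowest or far reduced in the knockout. In bulk RNA, fewer cells of a type and less RNA per cell cannot be told apart. Monocyte and neutrophil markers summed to 25.9 to 26.8 CPM in the controls, 5.33 to 5.68 in the knockout and 142 to 147 with LPS, with Ly6c2 and S100a9 at 0 counts in all 6 libraries. Lymphocyte markers summed to 16.98 to 18.4, 8.02 to 9.43 and 6.21 to 6.47 CPM, with Cd3e and Cd3g at 0, and dendritic cell markers to 7.51 to 7.58, 4.41 to 4.69 and 29.3 to 36.4 CPM.

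Fibroblast markers, 10 in number, summed to 1225 to 1248 CPM in the controls, 804 to 805 in the knockout and 731 to 735 with LPS, and oligodendrocyte-lineage markers to 272 to 279, 133 to 135 and 118 to 124 CPM. Endothelial markers summed to 60.8 to 61.1, 101 to 102 and 123 to 124.5 CPM. Of these, Cldn5 was at 0 counts in every group, Tie1 in the controls and the knockout, and Tek and Emcn in the knockout and with LPS. Mural markers summed to 30.6 to 32.2, 39.9 to 41.0 and 33.0 to 34.6 CPM. None of the 24 genes is on a marker list. The part of cell makeup in their levels was not tested.

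**Figure D5:**
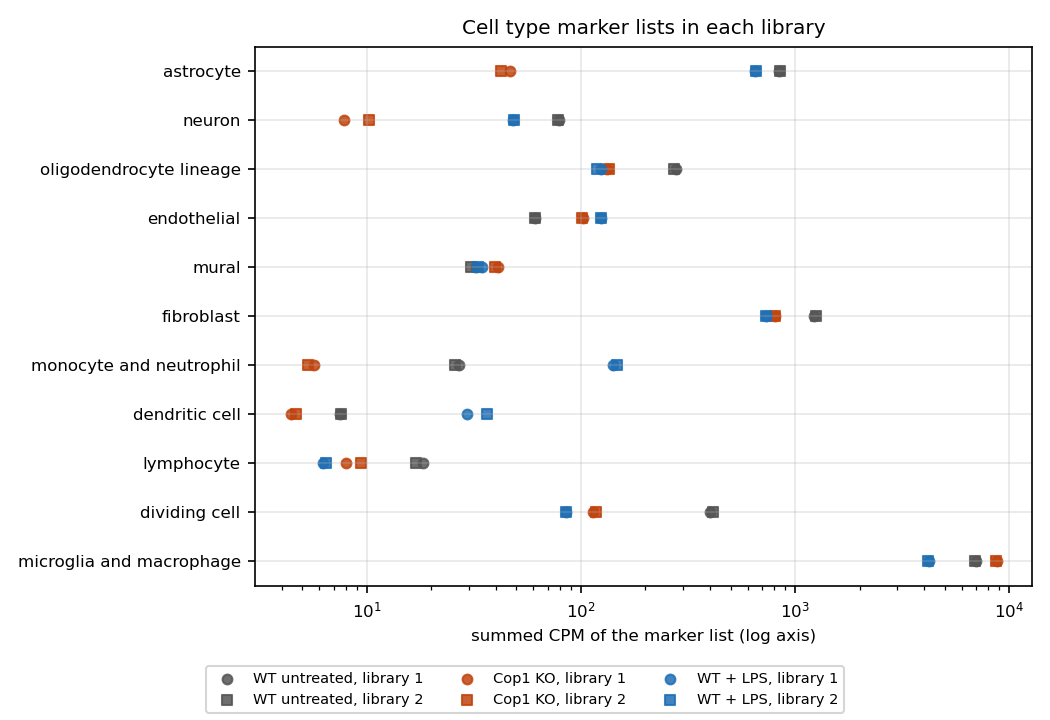
Summed CPM (x axis, log scale) of 11 lists of cell type markers (y axis) in each of the 6 libraries, with untreated wild type in grey, Cop1 KO in orange and LPS in blue. Astrocyte, neuron and dividing-cell sums are lowest or near lowest in the knockout, and the microglia and macrophage sum is highest in the knockout (8634 to 8737 CPM) and lowest with LPS.

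The 24 genes are spread over 14 chromosomes, with 4 on chromosome 11 and 3 on chromosome 3. Ssh2 and Abhd15 lie 54.9 kb apart on chromosome 11. The genes between them did not share the pattern as a block: Ankrd13b fell in both contrasts, by 0.50 and 1.78, Git1 had log2 fold changes of 0.00 and 0.02 (adjusted p = 1 and 0.72), and Trp53i13 changed by 0.72 and −0.70. Within 100 kb of a member there were 149 other genes, of which 86 that reached 5 CPM are no members. Of these 86, 4 passed the knockout threshold and 42 passed the LPS threshold, against 2.19% and 43.5% of all genes. None passed both, which follows from leaving out the members. The median L of the 86 genes was 0.04 in the knockout and −0.77 with LPS, against −0.15 and −0.68 for all genes.

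Some neighbours came near. Fgd3 and E030007A22Rik, 12.8 and 9.39 kb from Susd3, rose by 0.85 and 0.92 in the knockout and changed by −1.17 and −1.13 with LPS. Tbx6, 0.973 kb from Ypel3, was low, with means of 2.70, 5.08 and 0.114 CPM in the controls, knockout and LPS. Srpk3, 74.9 kb from L1cam, had means of 2.56, 5.13 and 0.204 CPM. Siglec1, the sialoadhesin gene 24.7 kb from Gfra4, rose by 1.98 in the knockout and by 0.42 with LPS. On library size its L with LPS was −0.14, so the direction of its LPS difference turns with the scaling. These neighbours were picked after their values were seen.

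RefSeq promoter windows, from 250 bases before to 50 bases after a start site on GRCm38.p6, were at hand for 19 of the 24 genes. They were searched on both strands for 10 short motifs of factors known in macrophages. GAAANNGAA, the core of the interferon-stimulated response element, was in 4 of 19 (21.1%, against 9.76% of all 27025 genes with a window and 8.91% of the 8916 that reached 5 CPM, as every member did): Cd300lf, F630028O10Rik, Gfra4 and Sirpb1a. TGANTCA, an AP-1 site, was in 2 of 19 (10.5%, against 8.97% and 6.21%): Gfra4 and Osgin1. TTGCNNCAA, a C/EBP site, was in 1 of 19 (5.26%, against 2.38% and 1.87%): Abhd15. The other counts were 2 of 19 each for GAGGAAGT (PU.1), CACGTG, TCANGTGA and TATAAA, against 3.69%, 8.09%, 4.78% and 15.7% of all genes and 3.81%, 12.2%, 4.91% and 8.56% of those that reached 5 CPM. CCGGAAGT (ETS), GGAANTTCC (NF-kB) and TATTTNTAG (MEF2) were in 0 of 19, against 4.31%, 1.07% and 1.79% of all genes and 9.68%, 1.28% and 1.03% of those that reached 5 CPM. With 19 windows, the exact 95% interval of a share runs from 6.05% to 45.6% for 4 matches and up to 17.6% for none. In the 150 bases nearest the start site alone, GAAANNGAA was in 2 of 19, F630028O10Rik and Gfra4 (against 4.67% and 4.06%). TGANTCA was there in 2 of 19 (against 4.91% and 3.35%) and TTGCNNCAA in 0 of 19 (against 1.02% and 0.852%).

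The stretches around 5 of these matches, all upstream of the start site, are shown with the match in capitals. Interferon, AP-1 and C/EBP sites are among those that LPS signalling and COP1 are known to act through. So are ETS and NF-kB sites, for which no window held a match to show. Each is written 5′ to 3′ on the strand of the gene, so a match on the other strand appears as its reverse complement.
Cd300lf, chr11:115134088-115134176, minus strand: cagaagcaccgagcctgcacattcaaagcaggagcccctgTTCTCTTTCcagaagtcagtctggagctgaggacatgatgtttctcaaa
F630028O10Rik, chrX:96239813-96239901, plus strand: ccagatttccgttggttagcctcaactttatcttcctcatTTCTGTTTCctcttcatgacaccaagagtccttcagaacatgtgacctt
Sirpb1a, chr3:15426606-15426677, minus strand: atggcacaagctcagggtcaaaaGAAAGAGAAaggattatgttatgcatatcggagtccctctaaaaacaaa
Osgin1, chr8:119437010-119437096, plus strand: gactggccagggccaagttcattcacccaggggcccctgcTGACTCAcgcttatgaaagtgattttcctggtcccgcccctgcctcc
Abhd15, chr11:77514911-77514999, plus strand: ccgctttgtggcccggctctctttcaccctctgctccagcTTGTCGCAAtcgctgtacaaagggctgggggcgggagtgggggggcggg
The first 3 carry the interferon-type core, the fourth the AP-1 letters and the last the C/EBP letters. The genes that hold the interferon-type core had LPS values of L between −2.70 (F630028O10Rik) and −0.93 (Cd300lf). A match of letters in these windows does not show that a factor binds there.

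The thresholds passed close to several genes. Just inside the knockout threshold lay Kifc2 (0.80), L1cam (0.80), Ypel3 (0.81), Tle6 (0.83) and C130050O18Rik (0.84). Just outside lay Apoc2 (0.799), Stab1 (0.79), Srpk3 (0.79), Treml1 (0.78) and Bbc3 (0.77). At the LPS threshold, Gm36856, Iqgap2, Cd300lf, L1cam and Ptger2 were the nearest inside, from −0.88 to −1.16, and Sap25 (−0.79), Itga8 (−0.77), Sez6l2 (−0.74), S100a6 (−0.67) and Sowahc (−0.60) the nearest outside. At the minimum level Gfra4 was nearest inside, with a mean of 5.59 CPM in the knockout, and C030034L19Rik (4.86) and Cdhr3 (3.39) were outside.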

How the data were processed

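RNA-seq libraries of mouse microglia in vitro (6 in all) were analysed, 2 in each of 3 groups taken from the treatment labels. Per the labels' protocols, libraries were made with a TruSeq RNA v2 kit, in which strand information is lost, and sequenced single-end. The submitters' processing notes name the aligner GSNAP and the build GRCm38 for the authors' alignments. Which release of either, and which gene annotation, is not stated in the labels or headers. Per the file headers, a deposited count is the number of reads that align uniquely to a gene model, and a deposited RPKM value (nRPKM) adjusts it for length, depth and a factor of the sample. Names and coordinates came from RefSeq (31049 of 36528 identifiers matched a symbol), and unnamed identifiers held 1.07% to 1.31% of the counts.

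Members were chosen on CPM of the library total with a pseudocount of 1 added to group means. The members and the gene lists were chosen with earlier results of these data known. For genes that are no members, all 6 libraries were fitted with edgeR 4.0.16 (filterByExpr, TMM, quasi-likelihood test, 3 residual degrees of freedom) in R 4.3.3. In each contrast 15585 genes were tested, and a gene was called at a Benjamini-Hochberg adjusted p below 0.05. TMM factors were about 1.19 (untreated), 1.04 (knockout) and 0.81 (LPS). The tests were tried on simulated data. Within groups, counts varied beyond counting error (chi-square over degrees of freedom from 1.498 to 2.15), so no library was taken as a repeat of another. Exon overlap was taken from GENCODE vM21. Members were named with values by ranks of L and level, by list and by nearness to a threshold, and list genes by smallest p, up to 4 a list; family relatives and neighbours were added after the values were seen. The values of some list genes are not reported here. Alternatives used DESeq2 1.42.0, limma 3.58.1, other scalings, pseudocounts, minimums, thresholds and left-out libraries. Counting intervals are exact, at 95%, and cover counting error only.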

Additional observations from a re-analysis of the deposited data

How the results depend on the processing

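The number of genes that met the rule, 24 on library size, was 48 with TMM factors (18 of the 24 among them), 63 with median-of-ratios factors (17), and 37 with nRPKM in place of CPM (7). It was 7 with a pseudocount of 5 and 35 with a pseudocount of 0.1, 26 with a minimum of 1 CPM and 11 with a minimum of 20 CPM, and 94 and 6 with thresholds of 0.6 and 1. Leaving out each library in turn gave 25 to 27 genes, of which 20 to 24 were members. Without untreated replicate 1, Gfra4, Kifc2 and Sirpb1c no longer met the rule, and without untreated replicate 2, C130050O18Rik, Cd300lf, L1cam and Tle6 did not. Without knockout replicate 1 this held for C130050O18Rik and Kifc2, without knockout replicate 2 for Gfra4, L1cam and Tle6, and without either LPS replicate for no member. No setting reversed a member's direction, but only the other scalings could have done so. A changed pseudocount, minimum or threshold cannot turn the sign of L. Leaving out a library could not either, since the libraries of the compared groups did not overlap in any member. The counts of genes called by edgeR stayed within 1.5 times under all alternatives tried: leaving out a library gave 7705 to 9396 calls in the knockout (9101 with all) and 10666 to 11721 with LPS (11481 with all). The share of higher calls moved from 48.1% to 58.4%, 24.4% and 63.6% in the knockout, and from 41.1% to 49.6%, 19.9% and 50.9% with LPS, with median-of-ratios factors, library size only and limma on the log2 of normalised RPKM plus 1. No paired analysis was possible because the labels give the libraries no replicate numbers that groups could share. Low counts limit Rab44, Gfra4, Tle6 and C130050O18Rik with LPS, where each library held 15 counts or fewer.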

Other observations

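On TMM scaling 30 further genes met both thresholds, 14 of them also with each of the other scalings, median of ratios and nRPKM. They were found after the values were seen and chosen by these same contrasts, so they are given here as values without a test. For Cx3cr1, Card9, Tle2, Fgd3 and E030007A22Rik, which are among the 30, edgeR values stand above. Those values come from the same contrasts and are no separate evidence for these genes. All 30 lay between 0.62 and 0.80 in the knockout on library size, and between −6.85 and −1.32 with LPS. Among the 14 were 2 receptor genes of microglial migration, Cx3cr1 and Cxcr4. Cxcr4 was at 209 and 214 CPM in the controls, 329.6 and 335 in the knockout and 1.04 and 0.632 with LPS. Stab1, which encodes the scavenger receptor stabilin 1, had the highest level of the 30, at 2329 and 2292 CPM in the controls, 4049 and 3923 in the knockout and 649 and 619.8 with LPS. Dkk2, a gene of a secreted Wnt pathway modulator, went from 57.5 and 59.3 CPM to 97.9 and 99.4 in the knockout and 0.900 and 0.875 with LPS. Bmf, a gene that promotes cell death, stood at 36.1 and 33.6, 57.3 and 57.0 and 1.58 and 1.17 CPM in the same order. Htr2b, a serotonin receptor gene, stood at 63.9 and 65.0, 100.5 and 99.7 and 2.97 and 4.28 CPM. In each of these 5 genes, picked after the values were seen, the LPS libraries lay below and the knockout libraries above the untreated ones. The choice of the 30 genes brings these orders about, and over all 11156 genes they held for 76.9% and 23.7%. On library size the distance to the untreated group was larger with LPS in all 30, by the ranges of L given above.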
